A study of Hyphopichia burtonii with 8 samples.

Results

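The comparison described here sets the yeast Hyphopichia burtonii in 1 M NaCl against the same yeast in 1 M KCl, 2 media of equal molarity that share chloride and differ in the cation. Precultured cells of the wild-type strain KJJ43, isolated from Nuruk, a Korean fermentation starter, were inoculated (OD600 of 0.6) into rich YPD medium that held 1 M NaCl, 1 M KCl, 1 M sorbitol or nothing more, and RNA was sequenced after 1 h. Each medium had 2 libraries, numbered 1 and 2, and the 4 salt libraries carry the comparison, while the sorbitol and YPD libraries helped to estimate the spread and are given as levels for orientation. All cells were of this 1 strain. Nothing in the labels says that the duplicates were separate cultures, so a p-value here speaks only for the spread between libraries, which may be technical.

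Of 6166 genes in the files, the 5726 with at least 1 FPKM (fragments per kilobase per total fragments, on a fixed scale, the deposited unit as inferred from the values) in 2 or more of the 4 salt libraries were compared. The remaining 440 genes were left out as too low. The rule lets a gene in through either salt, so 31 genes entered through NaCl alone, with both KCl values under 1 FPKM, and 18 through KCl alone, and in these a difference is partly built in. The second highest salt value was 1.003 FPKM in the lowest gene kept and 0.999 FPKM in the highest gene left out. A symbol was available for 2331 of the genes compared, given by the RefSeq annotation of another strain mostly after genes of other yeasts, and the roles named below are background from those relatives, mainly Saccharomyces cerevisiae and Candida albicans.

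Potassium is the main cation inside yeast cells, whereas sodium is toxic at high levels and is pumped out. Yeasts take up potassium through TRK, HAK and related transporters, export sodium through ATPases and sodium/proton antiporters, and store part of it in the vacuole. In Saccharomyces cerevisiae the calcium-dependent phosphatase calcineurin and its transcription factor Crz1 switch on sodium export, while the HOG (high-osmolarity glycerol) kinase pathway answers the loss of water that any concentrated solute brings.

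The sums of FPKM were 1197310 and 1209650 in the NaCl libraries and 1428950 and 1250660 in the KCl libraries, and 5661 to 5699 genes reached 1 FPKM in each of the 4. The files give no fragment counts, but the spacing of low values put 1 FPKM, over 1 kb of gene beyond a fitted offset of 200 nt, at about 20.8 and 24.4 fragments in the NaCl libraries and 27.7 and 15.2 in the KCl libraries. KCl 2 was thus the shallowest library of the series, and values near 1 FPKM rest on few fragments. FPKM is a share of each library, so a change in total RNA per cell would not show. The duplicates differed by a median of 0.17 log2 units in NaCl and 0.22 in KCl, and the absolute NaCl minus KCl difference had a median of 0.25.

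A minority of genes differed between the salts, and nearly all of the largest differences were rises in NaCl. Genes with an adjusted p under 0.05 were called (limma on log2(FPKM + 1) over all 8 libraries, Benjamini-Hochberg over the 5726 genes), and 631 genes, 11.0% of those tested, were called. In NaCl 395 genes were higher (6.90%) and 236 were lower (4.12%), and 1444 genes had an unadjusted p under 0.05. Of the called genes 233 were higher by at least 1 log2 unit and 66 lower, and at 2 log2 units the counts were 73 and 2. The genes lower in NaCl were the more abundant ones, with a median of 149 FPKM over the 4 salt libraries, against 61.2 for those higher in NaCl and 37.4 for all genes compared. The count of called genes became 238 without NaCl 1, 319 without NaCl 2 and 263 without KCl 1, and 202 genes, 157 higher and 45 lower, were called without each of the 8 libraries in turn. Of the genes that entered through NaCl alone 16 are among the 395, and of those that entered through KCl alone 0 are among the 236. Where a named gene lost its call when 1 library was left out, this is stated near its difference. In most cases those libraries and the largest adjusted p among them are given, mainly in brackets. Where several genes are given together, the libraries named are those that ended the call of each of them, and others could end it for some.

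**Figure D1:**
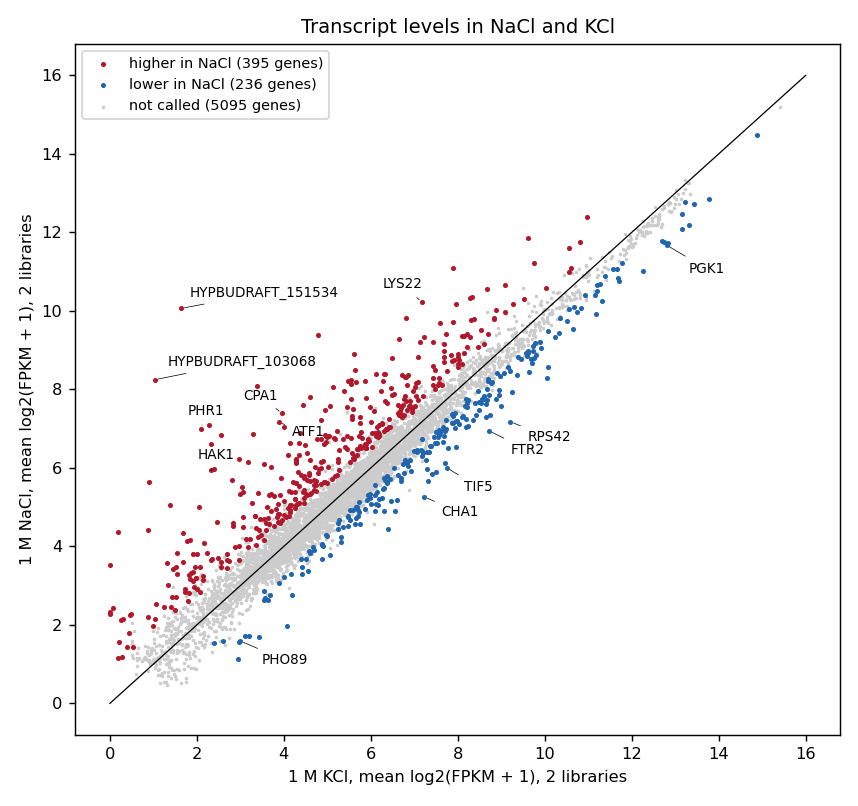
Mean log2(FPKM + 1) of the 2 NaCl libraries (vertical axis) against that of the 2 KCl libraries (horizontal axis), 1 point per gene compared, with the line of equal levels; red points are the 395 genes called higher in NaCl, blue the 236 called lower and grey the 5095 not called. Points far above the line, such as HAK1 and PHR1, have no counterpart at the same distance below it.

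The potassium transporter gene HAK1 separated the 2 salts most clearly among the 8 genes of the ion transport list. That list holds no gene for a sodium-exporting ATPase, and genes with no symbol could not enter it. HAK1 (HYPBUDRAFT_102797), a high-affinity potassium uptake system, stood at 62.5 and 58.1 FPKM in the NaCl libraries, against 4.26 and 3.75 in the KCl libraries. Sorbitol libraries had 8.77 and 7.54 FPKM and YPD libraries 20.4 and 10.8, so both NaCl values lay above, and both KCl values below, those of all 4 libraries without added salt. The difference was 3.62 ± 0.27 log2 units (NaCl minus KCl, estimate ± standard error throughout, adjusted p = 0.0001).

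PHO89 (HYPBUDRAFT_111289), which in Saccharomyces cerevisiae takes up phosphate together with sodium, went the other way. It had 3.18 and 1.17 FPKM in the NaCl libraries, against 9.39 and 5.13 in the KCl libraries, with no overlap but wide gaps within each pair (-1.40 ± 0.37, adjusted p = 0.047, not called without NaCl 2, KCl 1, sorbitol 1, sorbitol 2, YPD 1 or YPD 2, p up to 0.24). Levels in sorbitol (0.512 and 0.135 FPKM) and YPD (0.377 and 0.352) were below those of both salts. PHO89 was also not called with 0.1 in place of 1 FPKM added before the logarithm, with a minimum of 5 FPKM, or when only the 4 salt libraries were fitted.

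None of the other 6 ion transport genes of the list of 8 was called, and the list's median difference was -0.17, against -0.02 over all genes compared. CNH1, an antiporter that expels sodium in exchange for protons, had 56.1 and 51.5 FPKM in NaCl, against 66.9 and 79.4 in KCl (-0.43 ± 0.16, adjusted p = 0.13). The endosomal exchanger gene NHX1 was at 60.5 ± 2.23 FPKM in NaCl and 72.1 ± 6.31 in KCl (mean ± SD, n = 2), and the proton pump gene PMA1, whose gradient drives the antiporters, at 2309 ± 163 and 1990.4 ± 39.9 FPKM in the same order. TRK1 (potassium uptake), TOK1 (outward potassium channel) and KCH1 (low-affinity potassium uptake) differed by -0.16, 0.22 and -0.19 log2 units. TRK1 and TOK1 stayed under 6 FPKM in all 4 salt libraries.

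Genes of calcineurin signalling were called singly rather than as a body. Of 24 genes on the list of sodium tolerance and calcineurin signalling, 3 were higher in NaCl (12.5%, against 6.90% of all genes). In the list 1 gene was lower (4.17%, against 4.12%) and 20 were not called. The median difference was 0.05 and became -0.01 under quantile normalization. FIG1 was listed at 0 in all 8 libraries and was not tested. RCN1, which binds and regulates calcineurin, had 98.2 and 79.9 FPKM in NaCl, against 49.1 and 37.1 in KCl (1.04 ± 0.18, adjusted p = 0.0085, not called without NaCl 1, p up to 0.077). YVC1, a cation channel of the vacuole membrane, had 114 and 96.7 FPKM in NaCl, against 60.5 and 59.3 in KCl (0.80 ± 0.14, adjusted p = 0.0082, not called without NaCl 1 or KCl 1, p up to 0.077). In both genes the NaCl pair lay above the KCl pair by more than either pair was spread.

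The calcineurin subunit genes themselves were not called. CNB1, the regulatory subunit, had 102 and 109.8 FPKM in NaCl and 105 and 108 in KCl, and CMP1, the catalytic subunit, 104 and 98.4 in NaCl and 122 and 89.9 in KCl. CRZ1, the transcription factor that calcineurin activates, stood at 29.5 and 29.3 FPKM in NaCl, against 20.6 and 18.2 in KCl, and was not called (0.58 ± 0.17, adjusted p = 0.069). The same was true of 2 calcium transporters of the vacuole, the pump gene PMC1 (0.79 ± 0.23, adjusted p = 0.069) and the exchanger gene VCX1 (0.58 ± 0.21, adjusted p = 0.12). In PMC1 and VCX1 both NaCl values lay above both KCl values. That order was common, found in 1548 of the 5726 genes compared, so by itself it is little evidence of a difference. The calcium channel genes CCH1, MID1 and ECM7 (0.05, 0.32 and -0.09), the calmodulin gene CMD1 (0.17), the Golgi pump gene PMR1 (0.02), the calmodulin kinase genes CMK1 and CMK2 (-0.48 and -0.07), the phosphatase gene SIT4 (-0.12) and the kinase gene CBK1 (0.67) were not called. The rises became 0 without NaCl 1 and 1 without KCl 1.

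In the RIM pathway, which senses alkaline pH and also bears on salt tolerance, called genes went both ways. RIM20, a scaffold of that pathway, had 29.7 and 25.1 FPKM in NaCl, against 12.3 and 14.8 in KCl (0.97 ± 0.22, adjusted p = 0.029, not called without any 1 salt library, p up to 0.19). RIM13, the protease that the scaffold helps to act, had 36.7 and 33.7 FPKM in NaCl, against 68.2 and 51.9 in KCl (-0.74 ± 0.18, adjusted p = 0.036, not called without NaCl 1, NaCl 2 or KCl 1, p up to 0.22). RIM101, the transcription factor at the end of the pathway, was at 152 ± 13.0 FPKM in NaCl and 147 ± 23.4 in KCl and was not called. RIM8, RIM9, RIM21 and DFG16 differed by -0.18, 0.05, -0.14 and 0.32 and were not called either. The repressor gene NRG1 (0.80 ± 0.26, adjusted p = 0.091) was not called with all libraries and was called without NaCl 2 (adjusted p = 0.029).

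**Figure D2:**
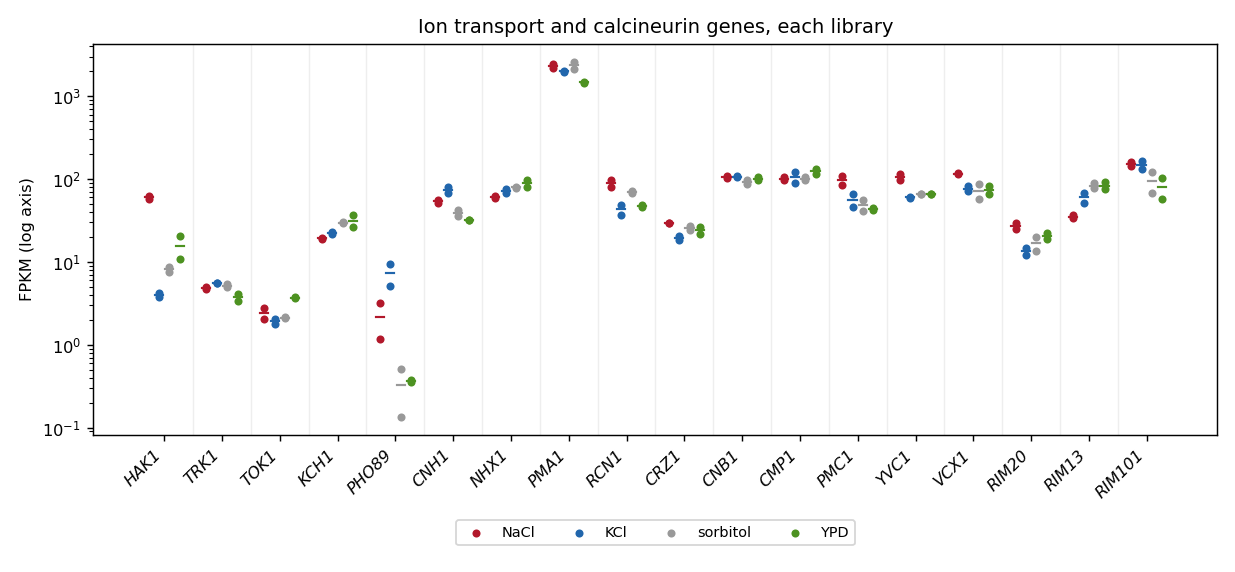
FPKM (log axis) of ion transport, calcineurin and RIM pathway genes in each library, with 2 points per medium (red NaCl, blue KCl, grey sorbitol, green YPD) and a bar at their mean. HAK1 is the gene in which the NaCl and KCl points lie farthest apart, PHO89 has the reverse order, and CNB1, CMP1 and RIM101 overlap between the salts.

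No gene of the HOG pathway, and neither of the main glycerol synthesis genes, was called between the cations. None of 21 HOG pathway genes was called by limma with all libraries, against 11.0% of all genes, and none in any alternative run. At that share a list of this size would hold only a few called genes. Of the 21 genes 0 had an unadjusted p under 0.05. Their median difference was 0.06, or -0.02 under quantile normalization. HOG1, the kinase that names the pathway, had 151 and 137 FPKM in NaCl, against 130.4 and 126 in KCl (0.16 ± 0.13, adjusted p = 0.48). The smallest p-values belonged to the osmosensor gene SLN1 (-0.48 ± 0.28, adjusted p = 0.34) and the phosphatase gene PTC1 (-0.28 ± 0.17, adjusted p = 0.37). GPD1, the dehydrogenase that commits carbon to glycerol, had 806 and 748 FPKM in NaCl, against 964 and 930.2 in KCl (-0.29 ± 0.14, adjusted p = 0.24). RHR2, the phosphatase of the next step, had 1009 and 945 FPKM in NaCl and 929 and 1066 in KCl (-0.03 ± 0.19, adjusted p = 0.95). All 4 salt values of each gene were below the sorbitol means, which were 1556 FPKM for GPD1 and 2499.6 for RHR2.

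Of 11 genes of glycerol and polyol metabolism, 1 was higher in NaCl (9.09%, against 6.90% of all genes) and none lower, with a median of 0.08. The called gene was GRE3, an aldose reductase, with 164 and 182 FPKM in NaCl, against 85.9 and 119 in KCl (0.77 ± 0.19, adjusted p = 0.036, not called without NaCl 1, NaCl 2, KCl 1, YPD 1 or YPD 2, p up to 0.21), and quantile normalization, a fit of the 4 salt libraries only and a fit without the intensity trend ended its call as well. Without KCl 2 the list had 2 rises. GPD2, the second glycerol 3-phosphate dehydrogenase, had 525 and 633 FPKM in NaCl, against 106 and 370.4 in KCl, and was not called (1.53 ± 0.54, adjusted p = 0.12). Its 2 KCl libraries stood far apart from each other, and the same pattern of a low KCl 1 and a higher KCl 2 recurs in genes of nitrogen source use below. In AMO1 and DUR3 among these, library 1 was the lower one in every medium, not in KCl alone. The vacuolar proton pump, which powers storage of sodium in the vacuole, had 0 of 14 genes called, against 11.0% of all genes (2 at an unadjusted p under 0.05, both higher). Nearest were VMA7 (0.47 ± 0.15, adjusted p = 0.087) and STV1 (0.43 ± 0.17, adjusted p = 0.16). No member was called in any alternative.

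Of the 6 largest differences 5 belonged to genes for which the annotation gives no symbol, the other being PHR1 among the cell wall genes. Of the 395 genes higher in NaCl 229 had no symbol, and so had 113 of the 236 lower. HYPBUDRAFT_151534 had 1109 and 1029 FPKM in the NaCl libraries, against 3.06 and 1.37 in the KCl libraries (8.43 ± 0.28, adjusted p = 1.9e-06), with 2.15 and 1.67 in sorbitol and 2.72 and 1.78 in YPD. HYPBUDRAFT_103068 had 284 and 322 FPKM in NaCl, against 1.06 and 1.03 in KCl (7.22 ± 0.24, adjusted p = 1.9e-06), with 0.330 and 1.05 in sorbitol and 1.21 and 1.21 in YPD. Both genes were thus at 3.06 FPKM or less in all 6 libraries without NaCl. HYPBUDRAFT_146588 (4.82 ± 0.28), HYPBUDRAFT_154021 (4.75 ± 0.25) and HYPBUDRAFT_11718 (4.71 ± 0.29) came next among genes with no symbol, the last of these at 271 and 269.9 FPKM in NaCl, against 9.28 and 9.49 in KCl. Each of these 5 was called without each library in turn, with adjusted p-values of at most 0.0011.

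On the lower side the unnamed genes moved less. HYPBUDRAFT_154124 had 2.27 and 3.64 FPKM in NaCl, against 15.4 and 16.03 in KCl (-2.10 ± 0.28, adjusted p = 0.0019), and HYPBUDRAFT_154005 had 49.6 and 50.1 in NaCl, against 171 and 147 in KCl (-1.65 ± 0.18). HYPBUDRAFT_151549 (-1.77 ± 0.26), HYPBUDRAFT_170275 (-1.80 ± 0.40, not called without NaCl 1 or KCl 2, p up to 0.16) and HYPBUDRAFT_147814 (-1.73 ± 0.31, not called without NaCl 2, p up to 0.057) completed the 5 largest falls among them. The files and the annotation table name no function for these 10 genes.

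Amino acid synthesis was the gene group with the most rises in sodium relative to potassium. Of 63 genes on the list 38 were higher in NaCl (60.3%, against 6.90% of all genes), 3 were lower (4.76%) and 22 were not called, and the median difference was 1.24, against -0.02 over all genes. The members' summed FPKM was 2.61% and 2.34% of the library in NaCl, against 1.24% and 1.31% in KCl, 1.05% and 1.13% in sorbitol and 1.01% and 1.05% in YPD. GCN4, the transcription factor that governs these pathways in Saccharomyces cerevisiae, had 878 and 856 FPKM in NaCl, against 309 and 325 in KCl (1.45 ± 0.12, adjusted p = 0.00013). Its KCl values were close to those in YPD (345 and 310.3 FPKM). GCN2, the kinase that acts upstream of it, differed by -0.32 and was not called.

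Arginine synthesis had the highest median of the pathways, 2.51, with 7 of 8 genes higher in NaCl and 1 not called. CPA1, a subunit of the carbamoyl phosphate synthase for arginine, had 189 and 147 FPKM in NaCl, against 15.3 and 13.8 in KCl (3.43 ± 0.18, adjusted p = 2.2e-05). ARG3 (ornithine carbamoyltransferase) had 106 and 92.0 FPKM in NaCl, against 17.0 and 16.2 in KCl (2.50 ± 0.15), and ARG4 (argininosuccinate lyase) 295 and 267 in NaCl, against 47.9 and 44.0 in KCl (2.58 ± 0.13). For ARG3 and ARG4 the KCl values sat on those of YPD, 17.3 and 16.3 FPKM for ARG3 and 45.7 and 47.1 for ARG4. ARG1 (argininosuccinate synthase) had 721 and 529.5 FPKM in NaCl, against 115 and 86.0 in KCl (2.62 ± 0.25), where the KCl pair was above the YPD pair of 23.6 and 36.0. ARG5,6 (2.53 ± 0.21), ARG8 (1.78 ± 0.16) and ARG11 (1.27 ± 0.21, not called without NaCl 1, p up to 0.07) were also higher. ARG2, which makes the first acetylated intermediate, was the exception, with 31.7 and 30.7 FPKM in NaCl, against 32.9 and 33.9 in KCl (-0.10 ± 0.14).

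In lysine synthesis 6 of 8 genes were higher in NaCl, with a median of 1.88. LYS22, a homocitrate synthase at the entry of the pathway, had 1318 and 1078 FPKM in NaCl, against 170.0 and 121 in KCl (3.05 ± 0.20, adjusted p = 4.5e-05). LYS21, which carries the name of another homocitrate synthase, was lower, with 167 and 163 FPKM in NaCl, against 243 and 224 in KCl (-0.50 ± 0.12, adjusted p = 0.037, not called without NaCl 1, NaCl 2, KCl 1, KCl 2, sorbitol 1 or sorbitol 2, p up to 0.21). The 2 genes named after the same enzyme thus went opposite ways between the salts. LYS1, the last step of the pathway, differed by 2.73 ± 0.21, LYS9 by 1.88 ± 0.18, LYS12 by 1.82 ± 0.18, LYS2 by 1.89 ± 0.24 and LYS4 by 1.88 ± 0.26.

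All 9 genes of branched-chain synthesis were higher in NaCl, with a median of 2.05. LEU42, named after an isopropylmalate synthase, had 1016 and 792 FPKM in NaCl, against 105 and 119.9 in KCl (2.99 ± 0.17, adjusted p = 2.8e-05). Among the later leucine steps LEU1 differed by 2.32 ± 0.16 and LEU2 by 2.28 ± 0.18. ILV2, the acetolactate synthase shared by the pathways, had 617 and 560.0 FPKM in NaCl, against 135 and 144 in KCl (2.07 ± 0.14). ILV1, which feeds threonine into isoleucine, was the member with the smallest difference (0.83 ± 0.22, adjusted p = 0.049, not called without NaCl 1, NaCl 2, KCl 1, KCl 2, sorbitol 1 or sorbitol 2, p up to 0.29). LEU42 and ARG5,6 were added to these pathways by hand, because the list's spelling had missed their symbols.

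Histidine synthesis had 4 of 5 genes higher, led by HIS1 (1513 and 1129.8 FPKM in NaCl, against 329 and 307 in KCl) at 2.04 ± 0.15, while HIS3 did not differ beyond its error (0.11 ± 0.13). Of 14 genes of aromatic amino acids 5 were higher and 9 were not called. The aminotransferase gene ARO8 had 914 and 740.3 FPKM in NaCl, against 191 and 192 in KCl (2.10 ± 0.13, adjusted p = 4.5e-05), and ARO3 and ARO4, the first enzymes of the shikimate pathway, differed by 1.24 ± 0.12 and 1.07 ± 0.13. The remaining shikimate and tyrosine genes, ARO1, ARO2, ARO7, TYR1 and PHA2, lay between -0.42 and 0.29 and were not called.

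Around glutamate, 6 of 10 genes were higher and 1 lower. PRO2, of proline synthesis, had 271 and 335 FPKM in NaCl, against 36.2 and 58.2 in KCl (2.69 ± 0.25, adjusted p = 0.00031), AAT1, an aspartate aminotransferase, differed by 2.12 ± 0.15 and the asparagine synthetase gene ASN1 by 1.58 ± 0.18. GLN1, the glutamine synthetase, was lower, with 2015 and 2307 FPKM in NaCl, against 3310.2 and 3202 in KCl (-0.59 ± 0.12, adjusted p = 0.018, not called without NaCl 1 or KCl 1, p up to 0.16). The glutamate dehydrogenase gene GDH3 was not called, with 942 and 1062 FPKM in NaCl, against 278 and 592 in KCl (1.30 ± 0.46, adjusted p = 0.12), and its KCl pair was again wide, with KCl 1 the low one. Its library 1 was also below library 2 in sorbitol (121 and 215 FPKM) and YPD (38.6 and 92.3). In the serine, glycine and threonine group the serine hydroxymethyltransferase gene SHM2 was lower, with 1246 and 1174 FPKM in NaCl, against 2740.2 and 2370.1 in KCl (-1.07 ± 0.12, adjusted p = 0.001), THR4 was higher (1.48 ± 0.17), and the other 5 genes were not called. Across the whole list the falls became 1 without NaCl 1 or KCl 1, and the rises stayed within 1.5 times of 38 without any 1 library.

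**Figure D3:**
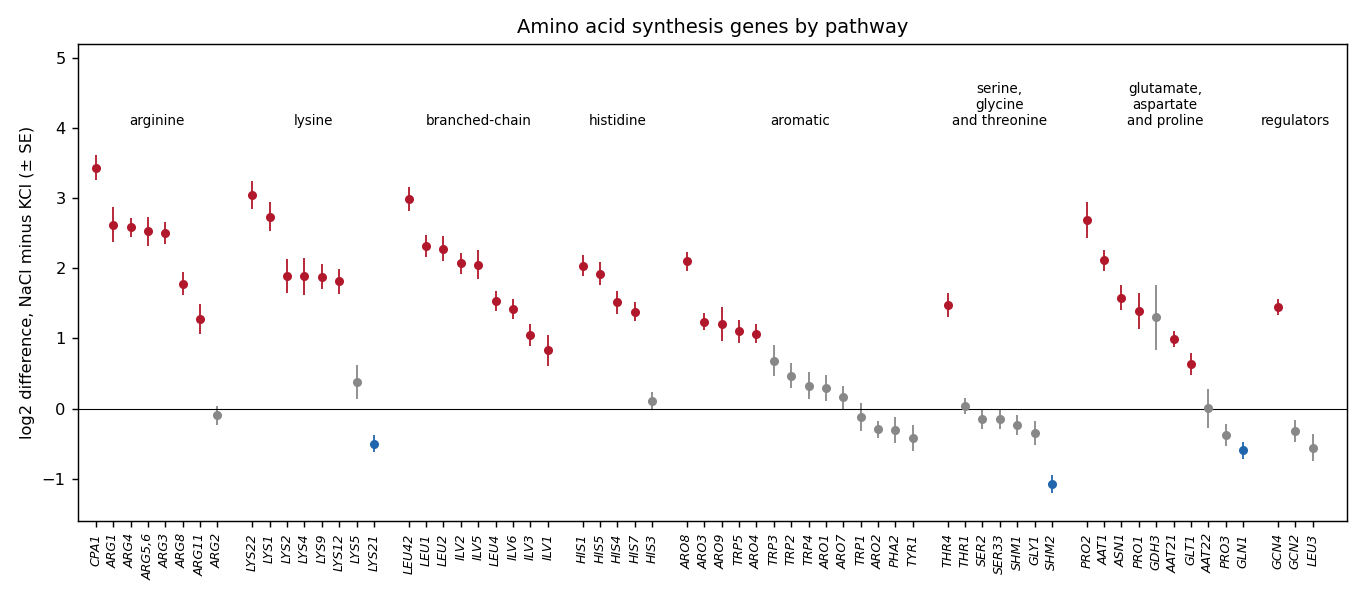
Difference between NaCl and KCl in log2(FPKM + 1) for genes of amino acid synthesis, grouped by pathway and sorted within each; points are limma estimates, bars their standard errors, red is called higher in NaCl, blue called lower and grey not called. Arginine, lysine, branched-chain and histidine genes lie mostly above 1, while most aromatic and serine genes lie near 0.

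Genes for taking up and breaking down nitrogen compounds split by compound. Of 34 members 7 were higher in NaCl (20.6%) and 6 lower (17.6%), both above the shares over all genes of 6.90% and 4.12%, and the median was 0.17. The rises became 4 without NaCl 1.

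The genes for 4-aminobutyrate use, named UGA, were higher in sodium. UGA4, the permease, had 9.64 and 10.7 FPKM in NaCl, against 1.504 and 2.25 in KCl (1.97 ± 0.22, adjusted p = 0.00079), and UGA1, the transaminase, 128 and 117 in NaCl, against 36.3 and 36.9 in KCl (1.71 ± 0.19, adjusted p = 0.00079). UGA11, named after the same enzyme, differed by 1.13 ± 0.14 and UGA2, the next step, by 0.57 ± 0.18 without a call. DAL1, the allantoinase, had 75.0 and 66.6 FPKM in NaCl, against 29.4 and 28.0 in KCl (1.27 ± 0.19, adjusted p = 0.0038). The ammonium permease gene MEP1 had 217 and 195 FPKM in NaCl, against 109 and 112 in KCl (0.89 ± 0.14, not called without NaCl 1, p up to 0.051).

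The urea transporter gene DUR3 and the amine oxidase gene AMO1 had among the largest estimates but a wide spread in KCl. DUR3 had 29.5 and 32.2 FPKM in NaCl, against 1.201 and 6.83 in KCl (2.94 ± 0.55, adjusted p = 0.012, not called without NaCl 1 or NaCl 2, p up to 0.073). AMO1 had 162 and 227 FPKM in NaCl, against 9.72 and 42.8 in KCl (3.15 ± 0.66, adjusted p = 0.019, not called without NaCl 1, NaCl 2 or KCl 1, p up to 0.11). KCl 1 was several times lower than KCl 2 in both. Library 1 was below library 2 in the other media as well. AMO1 had 5.34 and 16.3 FPKM in sorbitol and 2.09 and 3.72 in YPD. DUR3 had 0.301 and 1.57 FPKM in sorbitol and 0.019 and 0.248 in YPD. The ammonium permease gene MEP2, with 135 and 219.6 FPKM in NaCl, against 17.3 and 105 in KCl, was split in the same way and was not called (1.97 ± 0.96, adjusted p = 0.25).

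Lower in NaCl were the genes that break down serine, glycine and proline. CHA1, the serine and threonine dehydratase, had 39.4 and 35.4 FPKM in NaCl, against 144 and 154 in KCl (-1.96 ± 0.23, adjusted p = 0.0011), and its YPD level was 587 ± 207 FPKM. All 3 genes of the glycine decarboxylase complex on the list fell, with GCV1 at 182 and 196 FPKM in NaCl, against 493 and 524 in KCl (-1.42 ± 0.12, adjusted p = 0.00016), GCV2 at -1.45 ± 0.15 and GCV3 at -0.91 ± 0.15. For GCV1 and GCV2 the KCl values exceeded the YPD means of 398 and 197 FPKM, while the NaCl values lay below them. PUT2, of proline breakdown, differed by -1.15 ± 0.18, and GAP4, an amino acid permease, by -1.19 ± 0.18 (adjusted p = 0.0041).

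In Saccharomyces cerevisiae sodium inhibits a phosphatase that clears a by-product of sulfate assimilation. Transcript levels do not measure the activity of that enzyme, and its inhibition was not tested. No gene of sulfate reduction was called here. MET3 (ATP sulfurylase) had 92.7 and 102 FPKM in NaCl and 90.1 and 100.3 in KCl, and MET14 (adenylylsulfate kinase) 181 and 221 in NaCl and 254 and 195 in KCl, with overlapping pairs. MET10 and ECM17, of the sulfite reductase, differed by 0.04 and 0.22 and were not called. Of the 24 genes of the sulfate and methionine list 5 were higher (20.8%, against 6.90% of all genes), 2 lower (8.33%, against 4.12%) and 17 not called. The median was 0.04 and became -0.02 under quantile normalization.

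The called genes of that list were HOM3, MET13, HOM2, MET28 and MET2, all higher, and CYS4 and CYS3, both lower. HOM3, the aspartate kinase that begins methionine and threonine synthesis, had 110.2 and 112 FPKM in NaCl, against 24.3 and 37.9 in KCl (1.83 ± 0.34, adjusted p = 0.012, not called without NaCl 1, NaCl 2 or KCl 1, p up to 0.079). MET13, which supplies the methyl group, had 48.4 and 56.1 FPKM in NaCl, against 10.7 and 19.2 in KCl (1.79 ± 0.32, adjusted p = 0.0095, not called without NaCl 1, NaCl 2 or KCl 1, p up to 0.064). HOM2 (0.78 ± 0.15), MET28 (0.85 ± 0.16) and MET2 (0.62 ± 0.14) were higher as well, but none of these 3 was called without NaCl 1 or NaCl 2 (adjusted p up to 0.15). CYS4 and CYS3, which convert homocysteine to cysteine, were lower. CYS4 had 219 and 187 FPKM in NaCl, against 421 and 304 in KCl (-0.82 ± 0.19, not called without NaCl 1, NaCl 2 or KCl 1, p up to 0.16), and CYS3 548 and 461 in NaCl, against 936 and 780.2 in KCl (-0.76 ± 0.15, not called without NaCl 2 or KCl 1, p up to 0.094). The rises became 0 without NaCl 1 or NaCl 2, 1 without KCl 1 and 3 without KCl 2, and the falls 0 without NaCl 2 or KCl 1.

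Among the 24 lists glycolysis and fermentation held the largest share of falls. Of 20 genes 13 were lower in NaCl (65.0%, against 4.12% of all genes), 1 was higher and 6 were not called, with a median of -0.70. The list's summed FPKM was 4.56% and 4.36% of the library in NaCl, against 6.85% and 6.78% in KCl, 8.47% and 8.34% in sorbitol and 9.89% and 7.90% in YPD. Under quantile normalization the median was -0.58.

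The falls spread over the whole pathway. PFK2, a subunit of phosphofructokinase, had 797 and 690.0 FPKM in NaCl, against 1868 and 1371 in KCl (-1.11 ± 0.16, adjusted p = 0.0038). The glyceraldehyde 3-phosphate dehydrogenase gene TDH3 had 7686 and 7014 FPKM in NaCl, against 15001 and 13034 in KCl (-0.93 ± 0.13, adjusted p = 0.0023). PGK1, phosphoglycerate kinase, had 3124 and 3419 FPKM in NaCl, against 7619.6 and 6691 in KCl (-1.13 ± 0.14, adjusted p = 0.0013), and GPM1, phosphoglycerate mutase, 3491 and 3333 in NaCl, against 7778 and 6767 in KCl (-1.09 ± 0.14, adjusted p = 0.0015). In these 4 genes the pairs were separated widely and no removal of a library ended the call.

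The other falls were less firm. ENO1 (-1.07 ± 0.17, not called without NaCl 2, p up to 0.055), ADH1 (-1.12 ± 0.18, not called without NaCl 1, p up to 0.061) and FBA1 (-0.71 ± 0.13, not called without NaCl 1 or NaCl 2, p up to 0.091) each lost the call without 1 or 2 of the libraries. HXK2 (-0.69 ± 0.15), PGI1 (-0.59 ± 0.15), PFK1 (-0.51 ± 0.13), GPM2 (-0.92 ± 0.17), CDC19 (-0.97 ± 0.18) and PDC11 (-0.94 ± 0.19) were not called without either NaCl library or KCl 1, with adjusted p-values up to 0.2. PFK1 and HXK2 were also not called without KCl 2, nor PFK1 and PGI1 without either sorbitol library. ADH2, a second alcohol dehydrogenase, was not called and its pairs overlapped, with 7385 and 8739 FPKM in NaCl and 7852 and 9195 in KCl. The aldehyde dehydrogenase gene ALD5 was the member higher in NaCl, with 3876 and 3130.0 FPKM, against 1861 and 1739 in KCl (0.95 ± 0.16, adjusted p = 0.0062, not called without NaCl 1, p up to 0.063). The falls of the list became 5 without NaCl 1 or NaCl 2 and 7 without KCl 1.

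The 3 genes of the pyruvate dehydrogenase complex PDA1, PDB1 and LAT1, which passes pyruvate to the tricarboxylic acid (TCA) cycle, were lower in NaCl as well. PDA1 had 1089 and 1081 FPKM in NaCl, against 1872 and 1757 in KCl (-0.74 ± 0.11, adjusted p = 0.0034), LAT1 727 and 655 in NaCl, against 1429.9 and 1170.4 in KCl (-0.91 ± 0.13, adjusted p = 0.0035), and PDB1 differed by -0.79 ± 0.13 (not called without NaCl 2, p up to 0.052). Of 56 genes for respiration and the TCA cycle 10 were lower (17.9%, against 4.12% of all genes), 2 higher (3.57%, against 6.90%) and 44 not called. The median was -0.26. The succinyl-CoA ligase genes LSC1 (-0.60 ± 0.11) and LSC2 (-0.76 ± 0.13) and the cytochrome oxidase genes COX4 (-0.52 ± 0.11), COX5 (-0.53 ± 0.14) and COX13 (-0.55 ± 0.13) were among the falls, and none of these 5 was called without NaCl 1 or NaCl 2 (adjusted p up to 0.26). Of the 8 removals only that of KCl 2 left COX5 called. The falls became 3 without NaCl 1 or NaCl 2 and 4 without KCl 1.

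The NADP-dependent isocitrate dehydrogenase gene IDP1 was higher, with 1113 and 1219.6 FPKM in NaCl, against 275 and 224 in KCl (2.23 ± 0.14, adjusted p = 4.5e-05). IDP2, named after the same enzyme, was not called (-0.11 ± 0.25). The citrate synthase gene CIT1 (-0.34) and the ATP synthase genes ATP1 and ATP2 (-0.27 and -0.29) were not called.

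**Figure D4:**
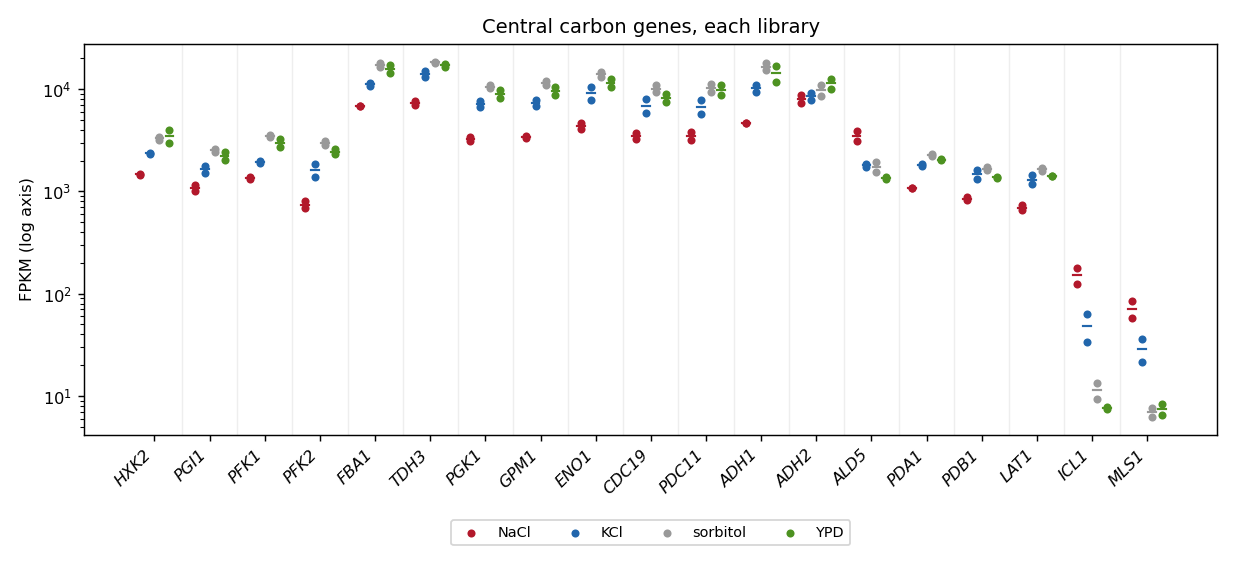
FPKM (log axis) of genes of glycolysis and fermentation in pathway order (HXK2 to ALD5), of pyruvate dehydrogenase (PDA1, PDB1, LAT1) and of the glyoxylate cycle (ICL1, MLS1) in each library, with 2 points per medium (red NaCl, blue KCl, grey sorbitol, green YPD) and a bar at their mean. From HXK2 to ADH1 the NaCl points lie below the KCl points in every gene, and the order is reversed in ALD5, ICL1 and MLS1.

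In the glyoxylate cycle and fatty acid breakdown the called genes were higher in NaCl. Of 22 genes 6 were higher in NaCl (27.3%, against 6.90% of all genes). None was lower (1 at an unadjusted p under 0.05) and 16 were not called, with a median of 0.44. ICL1, isocitrate lyase, had 125 and 179.7 FPKM in NaCl, against 33.8 and 62.9 in KCl (1.68 ± 0.31, adjusted p = 0.012, not called without NaCl 2 or KCl 1, p up to 0.082), and MLS1, malate synthase, 58.4 and 83.9 in NaCl, against 21.4 and 36.3 in KCl (1.30 ± 0.28, adjusted p = 0.023, not called without NaCl 1, NaCl 2 or KCl 1, p up to 0.14). In both genes the YPD pair, 7.48 and 7.83 FPKM for ICL1 and 6.53 and 8.29 for MLS1, lay below all 4 salt values. FAA2 (0.98 ± 0.18), FOX2 (0.75 ± 0.14), PEX5 (0.71 ± 0.13) and POT1 (0.59 ± 0.13), of peroxisomal fatty acid breakdown, were the other 4, and none of them was called without NaCl 1 or KCl 1 (adjusted p up to 0.17). PCK1, of gluconeogenesis, was not called, with 24.6 and 21.2 FPKM in NaCl, against 99.7 and 43.9 in KCl (-1.50 ± 0.44, adjusted p = 0.068). The 6 rises became 1 without NaCl 1 or NaCl 2 and 0 without KCl 1, and without KCl 2 the list had 1 fall.

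Of 13 trehalose and glycogen genes 3 were higher in NaCl (23.1%, against 6.90% of all genes) and 1 lower (7.69%, against 4.12%), with a median of 0.29. The debranching enzyme gene GDB1 had 57.5 and 53.3 FPKM in NaCl, against 20.03 and 20.1 in KCl (1.42 ± 0.17, adjusted p = 0.0011). The neutral trehalase gene NTH1 (0.66 ± 0.17, not called without any 1 of the 8 libraries, p up to 0.23) and the glycogenin gene GLG2 (1.11 ± 0.26, not called without NaCl 1, NaCl 2 or KCl 1, p up to 0.17) were the other 2 rises. TPS2, which completes trehalose synthesis, was lower, with 161 and 151 FPKM in NaCl, against 294 and 251 in KCl (-0.80 ± 0.13, not called without NaCl 2 or KCl 1, p up to 0.056). The rises became 1 without NaCl 1, NaCl 2 or KCl 1, and the fall 0 without NaCl 2 or KCl 1 and 2 without KCl 2.

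Sterol synthesis genes were called in 1 direction. Of 27 genes 7 were lower in NaCl (25.9%, against 4.12% of all genes), none was higher (0 at an unadjusted p under 0.05) and 20 were not called, with a median of -0.33. ERG1, squalene epoxidase, had 237 and 247 FPKM in NaCl, against 646 and 562 in KCl (-1.31 ± 0.12, adjusted p = 0.00031). ERG3, a desaturase, had 60.1 and 59.0 FPKM in NaCl, against 125 and 117 in KCl (-1.01 ± 0.17, adjusted p = 0.0065), and UPC2, the regulator of sterol genes, 22.7 and 22.9 in NaCl, against 48.4 and 48.5 in KCl (-1.06 ± 0.14, adjusted p = 0.0018). The KCl values of these 3 genes lay below those in YPD as well, where the means were 786, 281 and 95.0 FPKM, so both salts were below YPD and NaCl farther so. ERG11, the demethylase, differed by -1.34 ± 0.33, ERG4 by -0.79 ± 0.18, ERG25 by -0.72 ± 0.17 and IDI1 by -0.50 ± 0.13, and none of these 4 was called without NaCl 1, NaCl 2 or KCl 1 (adjusted p up to 0.23). ERG11 and ERG25 were also not called without KCl 2, and IDI1 without any 1 of the 8 libraries. The falls became 3 without NaCl 1, NaCl 2 or KCl 1 and 4 without KCl 2.

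Of 29 other lipid genes 2 were higher in NaCl (6.9%, against 6.90% of all genes) and 3 lower (10.3%, against 4.12%). The other 24 were not called, and the median was -0.09. ITR1, the inositol transporter gene, had 5.71 and 5.76 FPKM in NaCl, against 20.8 and 14.4 in KCl (-1.44 ± 0.20, adjusted p = 0.0024), and a sorbitol mean of 45.1. The sphingolipid hydroxylase genes SCS7 (-0.88 ± 0.13, adjusted p = 0.0038) and SUR2 (-0.77 ± 0.17) were lower. CHO2 (0.99 ± 0.25) and OPI3 (1.09 ± 0.29), which methylate phosphatidylethanolamine to phosphatidylcholine, were higher. SUR2, CHO2 and OPI3 were not called without any 1 of the 4 salt libraries (adjusted p up to 0.26), nor CHO2 without either YPD library. Those 2 rises became 0 without any 1 salt library and 1 without YPD 1 or YPD 2.

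Genes of iron and copper uptake were among those lower in NaCl. Of 24 genes of iron, copper and zinc uptake 4 were lower (16.7%, against 4.12% of all genes). In the list 1 gene was higher (4.17%, against 6.90%) and 19 were not called, with a median of -0.18. FTR2, an iron permease, had 127 and 118 FPKM in NaCl, against 502 and 351 in KCl (-1.77 ± 0.19, adjusted p = 0.00071), and FET31, named after the multicopper oxidase that works with such permeases, 85.4 and 94.6 in NaCl, against 240.3 and 198 in KCl (-1.27 ± 0.16, adjusted p = 0.0016). In both genes the YPD means, 259 FPKM for FTR2 and 189.7 for FET31, lay above the NaCl values and below the KCl values. For FET31 the margin in KCl 2 was narrow. The copper transporter gene CTR1 had 166 and 237 FPKM in NaCl, against 415 and 388 in KCl (-1.01 ± 0.17, adjusted p = 0.0065). Its YPD mean of 989 FPKM lay above the values of both salts, whereas that of FRE10, the remaining fall, was 10.3 FPKM and lay below them. FRE10, a reductase, differed by -0.74 ± 0.17 (not called without any 1 salt library, p up to 0.15), and CSR1, named after a zinc-responsive regulator, was higher by 1.11 ± 0.24 (not called without NaCl 1, NaCl 2 or KCl 1, p up to 0.15).

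Cell wall genes held some of the largest rises. Of 44 genes of the wall and surface 6 were higher in NaCl (13.6%, against 6.90% of all genes, or 5 of 43 without EXG2). None was lower (6 at an unadjusted p under 0.05, and 1 called without KCl 2 or under quantile normalization). The other 38 were not called, and the median was 0.03 and became -0.01 under quantile normalization. PHR1, a glucan-remodelling enzyme, had 152 and 106 FPKM in NaCl, against 3.37 and 3.18 in KCl (4.90 ± 0.23, adjusted p = 1.8e-05), and SCW4, of the glucanase family, 90.6 and 60.2 in NaCl, against 6.55 and 6.996 in KCl (3.27 ± 0.25, adjusted p = 0.00011). PHR2, a second enzyme of the PHR1 family, was not called, with 596 and 526 FPKM in NaCl, against 667 and 665 in KCl (-0.25 ± 0.14). In Candida albicans PHR1 and PHR2 are active at high and at low pH.

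The aspartyl protease gene SAP7 had 328 and 338 FPKM in NaCl, against 73.7 and 84.6 in KCl (2.06 ± 0.14, adjusted p = 6.9e-05), and the wall protein gene ECM331 534 and 472 in NaCl, against 206 and 204 in KCl (1.29 ± 0.17, adjusted p = 0.0023). The YPD means, 11.6 FPKM for SAP7 and 54.3 for ECM331, were below all salt values. EXG2, a glucanase, had 1.90 and 2.00 FPKM in NaCl, against 0.149 and 0.163 in KCl. It is the 1 list member that entered through NaCl alone, so its place among the rises is no evidence, and without it 5 of 43 genes were higher. Last, the exoglucanase gene XOG1 was higher by 0.90 ± 0.23 (not called without NaCl 1, NaCl 2, KCl 1, YPD 1 or YPD 2, p up to 0.22). The chitin and glucan synthase genes CHS1, CHS2, CHS3 and GSC1 lay between -0.52 and 0.21 and were not called. PGA5 was left out as too low.

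Of 17 genes of oxidative defence 3 were higher in NaCl (17.6%, against 6.90% of all genes) and 1 was lower (5.88%, against 4.12%). The other 13 were not called, and the median was -0.02. The peroxidase gene AHP1 had 289 and 302 FPKM in NaCl, against 72.0 and 81.0 in KCl (1.94 ± 0.16, adjusted p = 0.00017), and YPD had 3.06 and 3.87. The catalase gene CAT1 had 271 and 281 FPKM in NaCl, against 96.3 and 134 in KCl (1.28 ± 0.22, not called without NaCl 1, NaCl 2 or KCl 1, p up to 0.058), and SOD1, superoxide dismutase, differed by 0.54 ± 0.13 (not called without any 1 salt library, p up to 0.16). YHB1, a flavohaemoglobin, was lower (-0.90 ± 0.19, not called without NaCl 1, NaCl 2 or KCl 1, p up to 0.13). SOD6 was left out as too low. The rises became 1 without NaCl 1, NaCl 2 or KCl 1.

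Of 24 chaperone and heat shock genes 2 were lower (8.33%, against 4.12% of all genes), none was higher (1 at an unadjusted p under 0.05) and the median was -0.12. HSP90 had 268 and 237 FPKM in NaCl, against 549 and 443 in KCl (-0.97 ± 0.23, adjusted p = 0.035, not called without any 1 salt library, p up to 0.19), and the co-chaperone gene CNS1 differed by -0.79 ± 0.17 (not called without NaCl 1, NaCl 2 or KCl 1, p up to 0.15). AHA1, HSP78 and HSP70 differed by -0.04, 0.08 and -0.06 and were not called. In this list the 2 falls became 0 without NaCl 1, NaCl 2 or KCl 1 and 1 without KCl 2.

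In the translation machinery single genes were called within large groups. Of 68 cytosolic ribosomal protein genes 2 were lower (2.94%, against 4.12% of all genes) and 66 were not called. The list's median was -0.19, turning to 0.08 under quantile normalization, where 5 were called higher. Without KCl 2 the falls became 5. RPS42 had 137 and 151 FPKM in NaCl, against 622 and 556 in KCl (-2.02 ± 0.13, adjusted p = 3.9e-05), and RPL9B 841 and 1102 in NaCl, against 2383 and 2240.1 in KCl (-1.26 ± 0.15, adjusted p = 0.0011). Next on the lower side came RPS12 (-0.53) and RPL30 (-0.51), and the highest was RPL4B (0.11), all 3 not called. The initiation factor gene TIF5 (eIF5), outside the list, had 59.9 and 66.3 FPKM in NaCl, against 214 and 215 in KCl (-1.75 ± 0.14, adjusted p = 0.00013). Reads shared between near-identical ribosomal protein genes could not be separated from the files.

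Ribosome assembly had 5 of 81 genes lower (6.17%), none higher (0 at an unadjusted p under 0.05) and a median of -0.29. DBP2 (-0.80 ± 0.14), NOG1 (-0.99 ± 0.19), ARX1 (-0.69 ± 0.18), CGR1 (-0.57 ± 0.14) and GAR1 (-0.65 ± 0.17) were the 5, and none of them was called without NaCl 2 or KCl 1 (adjusted p up to 0.26). ARX1 and GAR1 were also not called without NaCl 1 or either YPD library, NOG1 without NaCl 1, and CGR1 without NaCl 1, KCl 2 or either sorbitol library. The falls became 1 without NaCl 1, 0 without NaCl 2 or KCl 1 and 3 without YPD 1 or YPD 2. Of 18 mitochondrial ribosomal protein genes 1, MRP17 (-0.90 ± 0.24, not called without NaCl 1, KCl 1, KCl 2, YPD 1 or YPD 2, p up to 0.26), was lower (5.56%), with a list median of -0.08. Of 27 proteasome genes 2 were higher (7.41%), PRE2 (0.63 ± 0.13, not called without NaCl 1, KCl 1 or KCl 2, p up to 0.13) and RPN2 (0.59 ± 0.16, not called without any 1 of the 8 libraries, p up to 0.28), and the median was 0.32. These shares of called genes lie near the 6.90% higher and 4.12% lower of all genes. The signs were less even in 2 of the lists. The difference was negative in 71 of 81 ribosome assembly genes and positive in 25 of 27 proteasome genes. At an unadjusted p under 0.05, 15 ribosome assembly genes were lower, and 15 proteasome genes were higher and 0 lower. Of the mitochondrial ribosomal protein genes 11 of 18 had a negative difference. A shift of a list as a whole was not tested.

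Among 68 genes for histones, DNA replication and the cell cycle 3 were higher (4.41%, against 6.90% of all genes), 4 lower (5.88%, against 4.12%) and 61 not called. Both shares lie near those of all genes, so the calls below speak for single genes and not for the group. The median was 0.01 and became -0.03 under quantile normalization. CDC21, thymidylate synthase, had 443 and 464 FPKM in NaCl, against 143 and 125 in KCl (1.75 ± 0.16, adjusted p = 0.00026). The segregase gene CDC48 (0.86 ± 0.16, not called without NaCl 1 or KCl 2, p up to 0.096) and the cyclin gene PCL5 (1.05 ± 0.25, not called without NaCl 1, NaCl 2 or KCl 2, p up to 0.21) were higher. Also called were the histone genes HHF1 (-0.96 ± 0.20), HTA1 (-0.68 ± 0.15) and HTA2 (-0.51 ± 0.14) and the replication gene CDC6 (-0.83 ± 0.18) lower. None of the 4 falls was called without NaCl 1 or KCl 1 (adjusted p up to 0.22). HTA1 and CDC6 were also not called without NaCl 2 or KCl 2, and HTA2 without any 1 of the 8 libraries. CDC48 and CDC21 entered the list through their names, and CDC48 acts in protein turnover rather than replication. The 4 falls became 0 without NaCl 1 or KCl 1 and 1 without NaCl 2 or KCl 2, and the 3 rises 1 without NaCl 1.

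Sugar transport and sensing had 1 of 22 genes called, the hexose transporter gene HGT3 (0.63 ± 0.16, not called without any 1 of the 8 libraries, p up to 0.24), and a median of -0.10. That 1 gene, higher in NaCl, is 4.55% of the list, against 6.90% of all genes. The galactose genes GAL1, GAL7 and GAL10 differed by -0.68, -0.80 and -0.77 and were not called. Among the largest differences of genes outside the lists, the alcohol acetyltransferase gene ATF1 had 145 and 139 FPKM in NaCl, against 11.0 and 17.0 in KCl (3.28 ± 0.26, adjusted p = 0.00012), and HYU1 114 and 117 in NaCl, against 6.05 and 12.6 in KCl (3.58 ± 0.39, adjusted p = 0.00075). HPD1 was higher by 2.65 ± 0.23. ROA1, named after a transporter gene of Candida albicans, had 24.2 and 17.6 FPKM in NaCl, against 106 and 65.1 in KCl (-1.96 ± 0.24, adjusted p = 0.0013), and FRP3 was lower (-1.40 ± 0.34, not called without NaCl 1, KCl 1 or KCl 2, p up to 0.17).

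**Figure D5:**
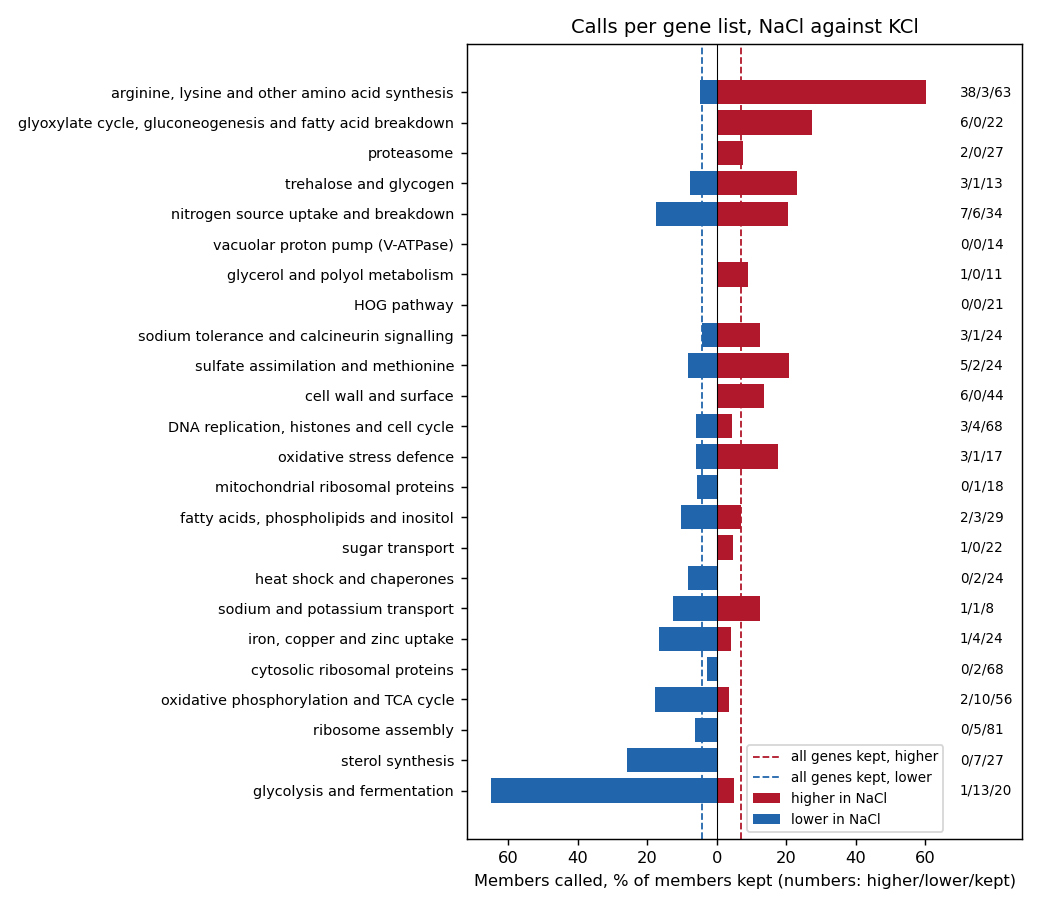
Members called higher (red, to the right) and lower (blue, to the left) in NaCl as a percentage of the members compared, for each of 24 gene lists sorted by median difference, with the numbers higher/lower/compared at the right; dashed lines mark the shares over all 5726 genes, 6.90% higher and 4.12% lower. Amino acid synthesis (38 of 63 higher) and glycolysis and fermentation (13 of 20 lower) reach farthest from these lines.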

How the data were processed

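Libraries were made from total RNA with a strand-marking kit, per the labels' protocols, and Cufflinks and TopHat are named, with no version, in the submitters' processing notes. Not given in the sources used here are the build, the annotation, the strand setting and any scaling between libraries. The deposited values carry no unit. They were read as FPKM of the authors' making, since they are not whole numbers and their sums differ between libraries. Depth was estimated from the spacing of low values times gene length.

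Genes with at least 1 FPKM in 2 or more salt libraries were tested on log2(FPKM + 1) with limma 3.58.1 in R 4.3.3, 4 media in 1 model over 8 libraries (4 residual degrees of freedom), with an intensity trend, and the contrast NaCl minus KCl was adjusted by the Benjamini-Hochberg method. The 1 FPKM added shrinks log2 differences of genes near 1 FPKM. The test was checked on simulated data.

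Of 6166 genes 6157 matched RefSeq (assembly Hypbu1, strain NRRL Y-1933) by locus tag, and 9 are listed by symbol, 4 of them by symbol alone. The members, the 24 lists and the rule for named genes were chosen with earlier results of these data known. The rule took every ion transport and calcineurin list gene, the 15 largest differences each way among called genes with a symbol, 5 each way without one, the 4 smallest p-values each way per list (2 where none was called), and GPD1, RHR2 and HOG1. Some genes that the rule names are not reported here. Other list members were named after their values were seen. Alternatives changed the pseudocount, filter, scaling, trend, block and libraries. A planned search of promoter motifs was not run.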

Additional observations from a re-analysis of the deposited data

How the results depend on the processing

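Between NaCl and KCl 631 genes were called, and the count ranged from 238 to 578 when 1 library was left out, with 182 to 372 higher and 56 to 206 lower. When only the 4 salt libraries entered the fit, 466 genes were called and those lower in NaCl became 151, against 236. The count was 597 with 0.1 FPKM added before the logarithm and 597 without a filter on level, 622 with the filter taken over all 8 libraries, 620 with a minimum of 5 FPKM, 691 after quantile normalization, 636 after median of ratios scaling and 571 without the intensity trend. Among the genes called, the sign changed for 1 gene after quantile normalization and for 0 in the other settings. The share higher in NaCl was 62.6% as given and 55.7% after quantile normalization. With the replicate number as a block 802 genes were called, 493 higher and 309 lower, 630 of them shared. Deviations of same-numbered libraries correlated across genes, which are not independent, at r = 0.36 for NaCl with KCl, 0.108 for NaCl with sorbitol, 0.494 for KCl with sorbitol, 0.164 for KCl with YPD, 0.35 for sorbitol with YPD and 0.00042 for NaCl with YPD. The labels tie no numbers together and there are only 2 numbers, so these values are a hint from the data and the fit without the block was kept. Among the named genes 240 combinations of gene and setting lost the call, 3 gained it and none reversed. With the block PMC1 (adjusted p = 0.023) and NRG1 (adjusted p = 0.047) were called, which they were not without it. Values near 1 FPKM in KCl 2 rest on about 15.2 fragments per kb, which limits calls of low genes.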

Other observations

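Genes of purine synthesis, a list put together after the values were seen, were lower in NaCl than in KCl in all 11 members found in the files (4.12% of all genes were), and both NaCl libraries lay below both KCl libraries in each (28.9% of all genes compared did so). ADE13, adenylosuccinate lyase, had 384 and 373 FPKM in NaCl, against 1377 and 848 in KCl, where YPD had 797 and 806 (-1.51 ± 0.21, adjusted p = 0.0026). ADE6, an earlier step of the pathway, had 164 and 159.7 FPKM in NaCl, against 484 and 380.0 in KCl (-1.40 ± 0.15, adjusted p = 0.00063), and ADE1 and ADE5,7 differed by -1.07 ± 0.14 and -1.01 ± 0.15. In the other 7 (ADE2, ADE4, ADE8, ADE12, ADE17, GUA1 and IMH3) the differences lay between -0.95 and -0.59, and each lost the call without at least 1 library. In all, 5 members were called without NaCl 1, 6 without NaCl 2 and 4 without KCl 1. The YPD mean lay between the NaCl and the KCl values in ADE6, with 263 FPKM. The same held for ADE1, ADE2, ADE5,7, ADE8, ADE12, ADE13 and ADE17. In ADE4 and IMH3 the YPD mean fell within the KCl pair, and in GUA1 within the NaCl pair.

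Vacuolar proteases and autophagy genes, also grouped after their values were seen, had 7 of 13 higher in NaCl (6.90% of all genes were) and none lower. AUT7, named after the autophagy protein also called ATG8, had 162 and 154 FPKM in NaCl, against 42.5 and 50.7 in KCl (1.75 ± 0.16, adjusted p = 0.00027). PRC3, named after a carboxypeptidase, had 97.8 and 103 FPKM in NaCl, against 26.6 and 34.3 in KCl (1.70 ± 0.22), and the aminopeptidase genes LAP3 and APE3 differed by 1.85 ± 0.19 and 0.90 ± 0.11. Of 18 aminoacyl-tRNA synthetase genes 6 were higher, against 6.90% of all genes, and none lower, among them the asparaginyl-tRNA synthetase gene DED81 (0.99 ± 0.14, adjusted p = 0.0031), and 1 was higher without NaCl 1, 3 without KCl 1 and 2 without KCl 2. In haem synthesis 3 of 7 genes were lower, against 4.12% of all genes, with HEM13 at 204 and 225 FPKM in NaCl, against 476 and 466 in KCl (-1.13 ± 0.14, adjusted p = 0.0012), and 1 was lower without any 1 salt library. These groups carry no test of the group.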
